A study of Mus musculus with 8 samples.

Results

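The PI3K, AKT and mTOR pathway was followed through 9 of its genes in a mouse pre-B cell line, as measured on Agilent 60-mer expression arrays. The genes are Pik3cd, Pik3ca and Pik3r1 (subunits of PI3K), Inpp5d (the SHIP1 phosphatase), Akt1 and Akt2 (the AKT kinases), Tsc1 and Tsc2 (the brake on mTOR) and Mtor itself. They were taken by name: every probe of the array that is not a control and that carries one of these gene names, which gave 15 probes out of 55681. All 9 genes and all 15 probes were among the 20677 genes and 29811 probes that passed the filter on dim signal, and each of the 15 was well above background on all 8 arrays.

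The cells are the line 1676, which carries SLP-65-/- LAT-/- deletions in every group, so that 2 adaptor proteins of pre-B cell receptor signalling are missing from controls as well. They had been infected with a retroviral control vector or with a vector for the human microRNA precursor hsa-miR-125b-1, selected with puromycin, and kept in an excess of interleukin-7 (IL-7) or cultured without IL-7 for 24 h, which per the labels induces pre-B cell differentiation. Each of the 4 groups holds 2 arrays. The series describes independent clones for each of 2 repetitions of the experiment, so n = 2 is 2 clones per vector of a single line. The comparison of vectors asks what miR-125b does to these mRNAs, and the comparison of media asks how they respond to loss of the growth factor.

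Class I PI3K makes the membrane lipid PIP3 when a cytokine or antigen receptor is engaged. PIP3 draws AKT to the membrane, AKT phosphorylates and thereby inhibits the TSC1-TSC2 complex, and the GTPase RHEB, freed from it, switches on the kinase complex mTORC1, which drives protein synthesis and growth. Lipid phosphatases such as SHIP1 remove the lipid signal. In pre-B cells IL-7 feeds this pathway, and its activity restrains the FOXO transcription factors that open the differentiation programme. This pathway acts largely through phosphorylation, which arrays do not measure.

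The vector carries the precursor of the miRNA below, shown because it is the agent that separates the groups. The sequence is the mature mouse entry of RefSeq, from chr9:41581940-41581961 on the + strand of GRCm38.p6. Capitals mark the seed, bases 2 to 8, which pairs with target mRNAs.
mmu-miR-125b-5p: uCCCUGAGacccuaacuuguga
Sites for this seed in the mRNAs of the 9 genes were not analysed here.

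Signals are given as log2 of the processed spot signal over the array's own 75th percentile, called the relative log2 signal, and differences as log2 differences with the standard error (SE) of the limma fit. A gene was called when its p, adjusted by Benjamini-Hochberg over all 20677 genes of that comparison, was under 0.05. The media were also hybridised on separate slides, 4 arrays each, and scanned and extracted with different software versions, so withdrawal of IL-7 cannot be told apart from these. Vectors were compared within a slide, but control arrays lay in columns 1 and 2 and miR-125b arrays in columns 3 and 4. Arrays had a 75th percentile of 325 to 379 with IL-7 and 606 to 722 without, 0 spots were saturated, and replicates correlated across genes at r = 0.994 to 0.996. All 11 pre-B cell markers were well above background on all 8 arrays, and their summed relative signal was 1500 to 1550 with IL-7 and 1160 to 1200 without. Of markers of other cells, 3 of 7 for T and NK cells, 3 of 5 for myeloid, 2 of 5 for erythroid, 2 of 4 for plasma and 0 of 4 for stromal cells were above background on all 8 arrays. Those of the first class were Cd3e, Cd4 and Klrb1c, and those of the second Csf1r, Itgam and Elane. Cd3g, Cd3d and Ncr1 of the first and Mpo of the second were so on none. Hbb-b1, counted among the erythroid markers, had no probe of that name. The highest sums of these classes, in the same order, were 5.87, 13.9, 0.292, 2.0 and 0.0705. The T and NK sum moved with the medium, from 3.61 to 4.42 with IL-7 to 5.6 to 5.87 without. The part of this shift in the results below was not tested.

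Withdrawal of IL-7 changed few of the 9 genes, and in different directions. Akt1 fell and Tsc1 rose, in control and in miR-125b cells alike, each by about the same amount in both. Pik3ca rose in control cells, and Tsc2 rose and Pik3cd fell in miR-125b cells. In all, 3 of 9 were called in control cells, where 54.2% of all genes tested were called, and 4 of 9 in miR-125b cells, where 52.4% were, shares no larger than that of genes at large. In RNA from whole cultures, fewer cells of a state and less RNA per cell cannot be told apart. Both arrays of one medium lay on the same side of both arrays of the other for 5 of 9 genes in control cells and for 6 of 9 in miR-125b cells, against 81.1% and 79.4% of all genes.

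How many of the 9 genes were called in each direction on withdrawal depended on how arrays were scaled to each other, although Akt1 was lower, and Tsc1 and Pik3ca higher, in every setting tried. With the 75th percentile, 2 rose and 1 fell in control cells, where 20% of all genes rose and 34.2% fell, and 2 rose and 2 fell in miR-125b cells, where 20.3% rose and 32.1% fell. Scaling to the array median, which moved the median change of all genes from -0.13 to -0.46 in control cells and from -0.11 to -0.36 in miR-125b cells, gave 0 higher in either, and 4 and 2 lower. Quantile normalization, which left the median of all genes at -0.05 and -0.03, gave 5 higher and 0 lower in both. Changes are therefore also given below relative to the median of all genes, and as differences between 2 genes of the same array.

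**Figure D1:**
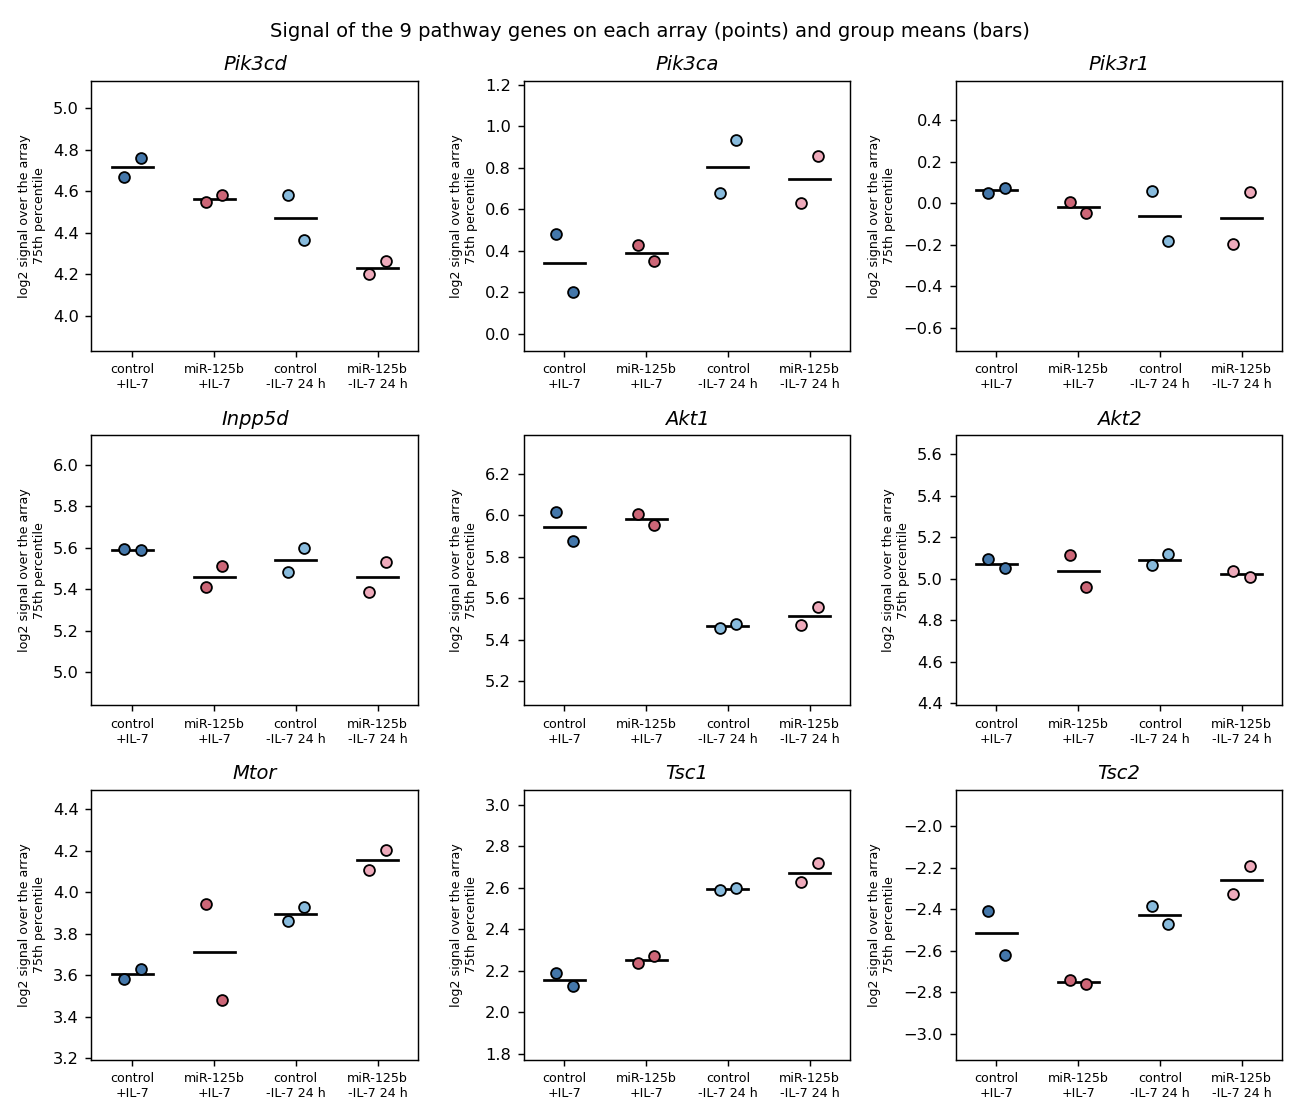
Relative log2 signal (vertical axis, log2 of signal over the array's 75th percentile) of the 9 genes in the 4 groups, with each array as a point and the mean of the 2 arrays as a bar. Akt1 lies at 5.87 to 6.01 with IL-7 and at 5.45 to 5.56 without, Tsc1 shows the opposite order, and Akt2 and Inpp5d overlap between media; the vertical range has the same width in each panel but not the same level.

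Pik3cd encodes p110delta, the catalytic PI3K subunit that dominates in lymphocytes. Its brightest probe (chr4:149023282-149023341, - strand; coordinates of probes are in mm9 throughout, as deposited) read 4.67 and 4.76 in control cells with IL-7, 4.55 and 4.58 in miR-125b cells with IL-7, 4.58 and 4.36 in control cells without IL-7 and 4.20 and 4.26 in miR-125b cells without it. The 2 miR-125b arrays without IL-7 were the lowest of the 8, and in either medium both miR-125b arrays lay below both control arrays. On withdrawal it fell by 0.33 in miR-125b cells (SE 0.10, adjusted p = 0.0308), while the difference in control cells was -0.24 (adjusted p = 0.0785). The call in miR-125b cells was lost without any 1 of the 4 miR-125b arrays (adjusted p = 0.0782 to 0.127) and under quantile normalization (-0.07, adjusted p = 0.662).

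Pik3ca encodes p110alpha, the catalytic subunit used by many growth factor receptors. Its probe (chr3:32360630-32360689, + strand) read 0.48 and 0.20 in control cells with IL-7, 0.43 and 0.35 in miR-125b cells with IL-7, 0.68 and 0.93 in control cells without and 0.63 and 0.86 in miR-125b cells without. All 4 arrays without IL-7 lay above all 4 with it, and the vectors overlapped in both media. It rose by 0.46 on withdrawal in control cells (SE 0.15, adjusted p = 0.039), with a difference of 0.36 in miR-125b cells (adjusted p = 0.0848). The call in control cells was lost in 9 of 19 other settings. Among them were scaling to the array median (0.13, adjusted p = 0.585), no filter on dim probes, only the 4 arrays compared, and the replicate block. It was also lost without control replicate 2 with IL-7 (0.32) and without either control array lacking IL-7 (0.59 and 0.33). Leaving either miR-125b array with IL-7 out of the shared estimate of spread lost it too.

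Pik3r1 encodes the regulatory subunit p85alpha and its shorter forms, which hold and stabilise the catalytic subunits. Its probe (chr13:102454406-102454465, - strand) read 0.05 and 0.07, 0.01 and -0.05, 0.06 and -0.18, and -0.20 and 0.05, in the order control with IL-7, miR-125b with IL-7, control without and miR-125b without. The spread between replicates without IL-7 was wider than any difference between group means. Neither the withdrawal differences (-0.12 and -0.05, adjusted p = 0.422 and 0.745) nor the vector differences (-0.08 and -0.01) passed. Under scaling to the array median the difference in control cells, -0.46, was called (adjusted p = 0.0182), although it lay only 0.01 from the median of all genes.

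Inpp5d encodes SHIP1, the haematopoietic phosphatase that removes the 5-phosphate of PIP3. Its probe (chr1:89616958-89617017, + strand) read 5.59 and 5.59 in control cells with IL-7, 5.41 and 5.51 in miR-125b cells with IL-7, 5.48 and 5.60 in control cells without, and 5.38 and 5.53 in miR-125b cells without. The media overlapped for both vectors. The withdrawal differences of -0.05 and -0.00 did not pass, but under quantile normalization the gene was called higher, by 0.28 and 0.32 (adjusted p = 0.0281 and 0.0204), and under scaling to the median it was called lower in control cells, by -0.39 (adjusted p = 0.0431). Its level on withdrawal therefore has no settled direction in these arrays.

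Akt1 is the widely expressed AKT kinase. Its probe (chr12:113892079-113892138, - strand, the only one here with 2 spots on the array) read 6.01 and 5.87 in control cells with IL-7, 6.01 and 5.95 in miR-125b cells with IL-7, 5.45 and 5.48 in control cells without, and 5.47 and 5.56 in miR-125b cells without. All 4 arrays without IL-7 lay below all 4 with it, and the vectors overlapped in both media. Akt1 fell by 0.48 in control cells (SE 0.08, adjusted p = 0.00499), its level with IL-7 being 1.39-fold that without, and by 0.47 in miR-125b cells (SE 0.08, adjusted p = 0.00603). The calls held with each single array left out, but not under quantile normalization (-0.13 and -0.08, adjusted p = 0.132 and 0.315). Relative to the median of all genes the change was -0.35 in both cell types with the 75th percentile, and -0.09 and -0.05 with quantile normalization.

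Akt2, the AKT kinase best known from insulin signalling, was measured by 4 probes, of which the brightest (chr7:28424405-28424464, + strand) read 5.09 and 5.05, 5.11 and 4.96, 5.07 and 5.12, and 5.04 and 5.01 in the same order of groups. These 8 values span little more than the gap between the replicates of miR-125b cells with IL-7. The withdrawal differences were 0.02 and -0.01 (adjusted p = 0.837 and 0.886), with 95% intervals of -0.18 to 0.22 and -0.21 to 0.18. Quantile normalization gave 0.30 and 0.27, both called (adjusted p = 0.0283 and 0.0415). Within arrays, this brightest probe gained on Akt1 by 0.50 in control cells and by 0.45 in miR-125b cells after withdrawal. The gain was 0.35 to 0.49 under normexp, quantile normalization and the authors' deposited table. In each of these settings all 4 arrays without IL-7 had a higher ratio of this probe to Akt1 than all 4 with it. The Akt2 probe farthest upstream was itself called lower on withdrawal, by -0.30 and -0.34, so the gain holds for the brightest probe and not for every Akt2 probe alike.

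Tsc1 encodes hamartin, the scaffold that stabilises TSC2. Its probe (chr2:28546610-28546669, + strand) read 2.19 and 2.13 in control cells with IL-7, 2.24 and 2.27 in miR-125b cells with IL-7, 2.59 and 2.60 in control cells without, and 2.63 and 2.72 in miR-125b cells without. All 4 arrays without IL-7 lay above all 4 with it, and within each medium both miR-125b arrays lay above both controls. Tsc1 rose by 0.44 in control cells (SE 0.07, adjusted p = 0.00454), or 1.35-fold, and by 0.42 in miR-125b cells (SE 0.07, adjusted p = 0.00579), or 1.34-fold. Of 19 other settings the call was lost in 1 for each cell type, scaling to the array median (0.10 and 0.17, adjusted p = 0.499 and 0.277). Relative to the median of all genes the change was 0.57 and 0.53 there and with the 75th percentile, and 0.61 and 0.57 with quantile normalization.

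Tsc2 encodes tuberin, the GTPase activator that turns RHEB off. Its probe (chr17:24732882-24732941, - strand) was dim, at a mean pixel signal of 82.6 to 194 over a local background of 21 to 27. It read -2.41 and -2.62 in control cells with IL-7, -2.74 and -2.76 in miR-125b cells with IL-7, -2.38 and -2.47 in control cells without, and -2.33 and -2.19 in miR-125b cells without. The miR-125b arrays were the lowest with IL-7 and the highest without it. In miR-125b cells Tsc2 rose by 0.49 (SE 0.10, adjusted p = 0.0103), and in control cells the groups overlapped (0.09, adjusted p = 0.482; -0.20 under normexp and -0.25 under scaling to the median, neither called). The call was lost under normexp background correction (0.04, adjusted p = 0.752), under scaling to the median (0.24, adjusted p = 0.18) and without miR-125b replicate 2 lacking IL-7 (0.42, adjusted p = 0.0573).

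Mtor encodes the kinase shared by both mTOR complexes. Its brighter probe (chr4:147931250-147931309, + strand) read 3.58 and 3.63 in control cells with IL-7, 3.94 and 3.48 in miR-125b cells with IL-7, 3.86 and 3.93 in control cells without, and 4.11 and 4.20 in miR-125b cells without. Arrays without IL-7 lay above those with it for each vector, but the SD of miR-125b cells with IL-7, 0.33, was the widest of any group among the 9 genes. The withdrawal differences of 0.29 and 0.44 did not pass (SE 0.15, adjusted p = 0.158 and 0.0544). Both were called under quantile normalization (0.48 and 0.67, adjusted p = 0.0464 and 0.0182) and under normexp (0.41 and 0.63, adjusted p = 0.0134 and 0.00149). Without miR-125b replicate 1 with IL-7 they were 0.29 and 0.67, called at adjusted p = 0.0319 and 0.00911.

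**Figure D2:**
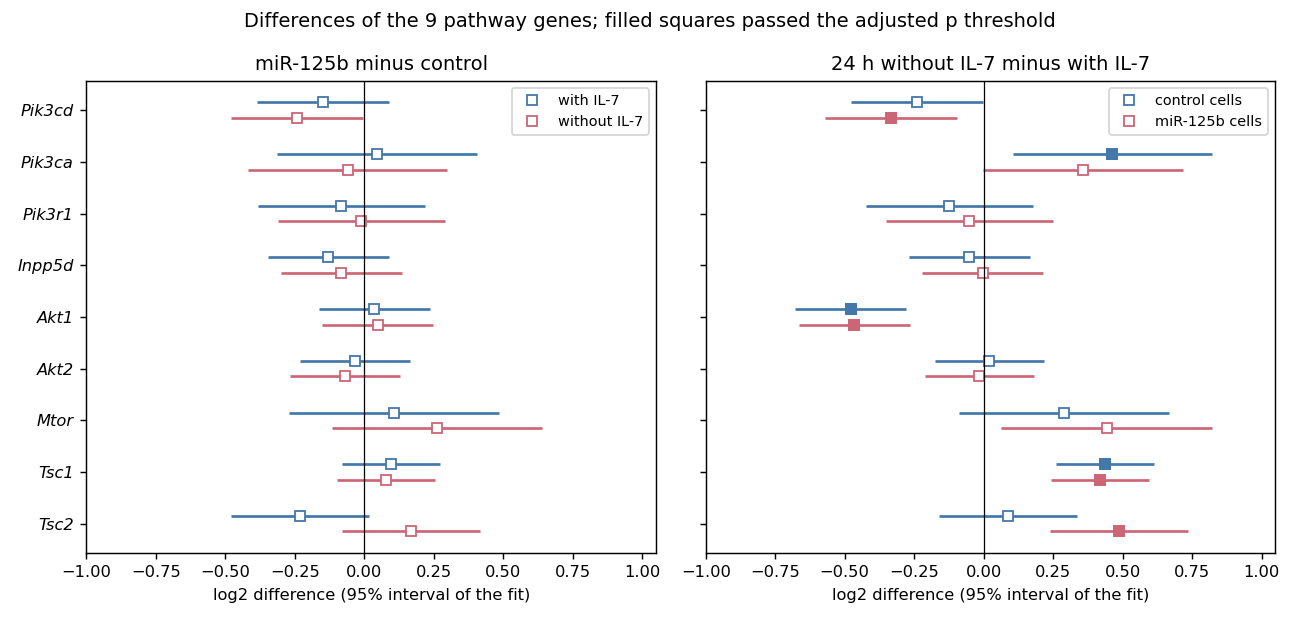
Log2 differences of the 9 genes (squares) with 95% intervals of the limma fit (lines), for miR-125b minus control on the left and 24 h without IL-7 minus with IL-7 on the right; filled squares passed the adjusted p threshold. No square on the left is filled, and on the right Akt1 and Tsc1 are filled in both cell types on opposite sides of 0.

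Differences between 2 genes of the same array do not depend on a single scale factor per array. Within each array, Tsc1 gained on Akt1 by 0.92 in control cells and by 0.88 in miR-125b cells after withdrawal. The gain was 0.62 to 0.86 under normexp, quantile normalization and the authors' deposited table, and in all of these settings the 4 arrays without IL-7 lay above the 4 with it. Pik3ca gained on Pik3cd by 0.70 and 0.69, and by 0.47 and 0.44 under quantile normalization, where the media overlapped. These pairs were chosen after the values were seen, and such a ratio shows unequal change of 2 probes, not which of them moved.

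A start region of each of Akt1, Akt2 and Tsc1 is shown. Akt1 and Tsc1 moved in opposite directions, and the brightest probe of Akt2 stood apart from Akt1. Each is the 250 bases before an annotated start in RefSeq for GRCm38.p6, at chr12:112674885-112675134 on the - strand, chr7:27591302-27591551 on the + strand and chr2:28640983-28641232 on the + strand. Both strands were searched for TGTTTAC, a core motif of FOXO factors, for TTCNNNGAA, the motif of STAT factors, and for CACGTG, the E-box bound by MYC and TFEB. Capitals mark the matches. Akt1 and Akt2 have further annotated starts, and the region shown for each is the only region of that gene with a match.
Akt1: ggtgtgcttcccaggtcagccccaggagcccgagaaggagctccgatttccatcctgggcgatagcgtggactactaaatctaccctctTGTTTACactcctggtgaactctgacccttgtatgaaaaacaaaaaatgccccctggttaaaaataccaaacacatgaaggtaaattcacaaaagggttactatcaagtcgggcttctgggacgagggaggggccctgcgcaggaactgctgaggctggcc
Akt2: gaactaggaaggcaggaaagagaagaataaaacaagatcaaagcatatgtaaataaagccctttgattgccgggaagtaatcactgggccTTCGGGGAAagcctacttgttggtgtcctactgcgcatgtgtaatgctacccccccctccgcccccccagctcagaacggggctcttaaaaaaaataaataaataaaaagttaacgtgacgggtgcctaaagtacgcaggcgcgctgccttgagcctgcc
Tsc1: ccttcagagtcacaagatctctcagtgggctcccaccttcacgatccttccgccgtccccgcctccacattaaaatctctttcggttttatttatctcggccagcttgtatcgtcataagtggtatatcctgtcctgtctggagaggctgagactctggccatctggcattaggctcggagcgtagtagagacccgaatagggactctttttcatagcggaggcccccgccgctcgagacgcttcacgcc
Of 16 start regions of the 9 genes, 1 holds TGTTTAC (this one of Akt1), 2 hold TTCNNNGAA (this one of Akt2 and the one of Mtor) and 0 hold CACGTG. Among 32851 start regions of all genes the shares are 3.17%, 7.02% and 6.02%. A match is a string of letters and says nothing here of binding.

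The 3 genes with several probes differed between probes. A second Mtor probe (chr4:147829016-147829075), which lies upstream of the first and carries the name Mtor only in the newer version of the array's annotation, read -1.18 and -1.28, -1.12 and -1.10, -1.81 and -1.59, and -1.56 and -1.64 in the order of groups used above. It was lower on withdrawal by -0.47 in control cells and by -0.49 in miR-125b cells (SE 0.10, adjusted p = 0.011 and 0.0103 over the 29811 probes, of which 51.1% and 49.2% were called). The first probe thus gained on the second by 0.76 and 0.93, and by 0.86 to 1.24 under normexp, quantile normalization and the deposited table, without overlap of the media in any of them. Which of the 2 stands for Mtor mRNA cannot be settled from these arrays, and the mean of both gave -0.09 in control cells and -0.02 in miR-125b cells.

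For Akt2, the probe farthest upstream (chr7:28418226-28418285) read 2.06 and 2.17, 2.08 and 1.95, 1.85 and 1.80, and 1.65 and 1.69, and was called lower on withdrawal by -0.30 and -0.34 (SE 0.08, adjusted p = 0.03 and 0.0204). The other 3 Akt2 probes were not called, at 0.02 to 0.20 in control cells and -0.01 to 0.14 in miR-125b cells. The brightest and the second of them (chr7:28424412-28424471) share 53 bases and are not separate evidence, and the fourth (chr7:28425375-28425434) carries the name Akt2 only in the newer annotation. The brightest probe gained on the upstream one by 0.32 in each cell type, and by 0.33 to 0.54 under normexp, quantile normalization and the deposited table. For Pik3cd, the other 2 probes (chr4:149023926-149023985 and chr4:149024749-149024808) differed by 0.00 and -0.04 on withdrawal in control cells and by -0.20 and -0.13 in miR-125b cells, none of them called. Its 3 probes had the same sign in the comparison of vectors, from -0.13 to -0.18 with IL-7 and from -0.24 to -0.33 without.

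**Figure D3:**
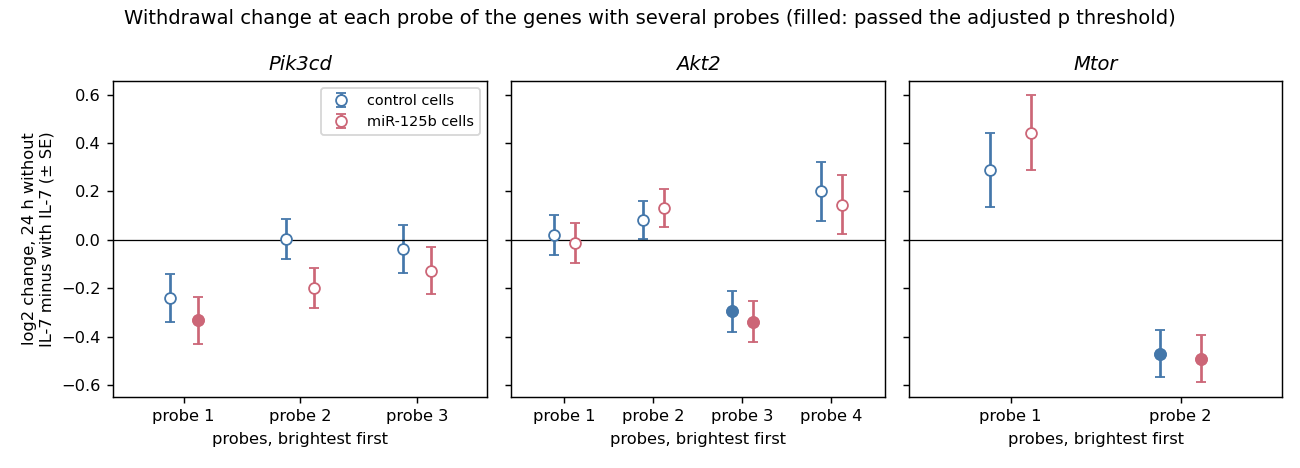
Log2 change on withdrawal of IL-7 (24 h without minus with, points with SE) at each probe of Pik3cd, Akt2 and Mtor, ordered by brightness, in control cells (blue) and miR-125b cells (red); filled points passed the adjusted p threshold over all probes. The second Mtor probe and the third Akt2 probe lie below 0 in both cell types, apart from the other probes of their genes.

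MiR-125b changed none of the 9 genes past the threshold. With IL-7, 0 of 9 were called where 2.59% of all genes were, and without IL-7, 0 of 9 where 6.42% were. In the average of both media, which sets 4 arrays against 4, 0 of 9 were called against 15.8% of genes. The 4 arrays of a vector can share clones across media, but the fit took them as independent and had no term for the clone. The SE, intervals and adjusted p of this average, here and below, therefore hold only if the arrays are independent. The differences ran from -0.23 for Tsc2 to 0.11 for Mtor with IL-7, and from -0.24 for Pik3cd to 0.26 for Mtor without. At an unadjusted p under 0.05 limma gave 0 of the 9 genes with IL-7, where 20.6% of all genes passed, and 1, Pik3cd, both without IL-7 (25.3% of all genes) and in the average (33.0%).

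Without IL-7 and in the average, Pik3cd came nearest to the threshold of the 9; with IL-7 Tsc2 did (adjusted p = 0.264). Pik3cd was -0.15 with IL-7, -0.24 without and -0.20 in the average (SE 0.07, adjusted p = 0.108), and a fit with a mean-variance trend called the average (adjusted p = 0.0439). Its other 2 probes gave averages of -0.23 each (adjusted p = 0.0534 and 0.0859 over all probes, of which 13.9% were called). The 95% interval of the average runs from -0.36 to -0.03 for Pik3cd, from -0.10 to 0.18 for Akt1, from -0.19 to 0.09 for Akt2, from -0.04 to 0.21 for Tsc1, and from -0.08 to 0.45 for Mtor. Groups did not overlap for 5 of the 9 genes in each medium, against 50.1% and 60.7% of all genes.

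The response to withdrawal was also set against the vector directly. None of the 9 genes passed for this difference, and neither did any of the 20677 genes (limma; 1216 genes, or 5.88%, had an unadjusted p under 0.05, and 0 to 5 were called under the other settings). Tsc2 had the largest difference of the 9, 0.40 more with miR-125b (SE 0.14, unadjusted p = 0.0319, adjusted p = 0.801). For Akt1 and Tsc1 the difference was 0.01 and -0.02, with 95% intervals of -0.27 to 0.29 and -0.27 to 0.23.

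Around the 9 genes, 76 other genes of the pathway were followed in 7 lists by role, and 68 of them could be measured. Pik3cb, Inpp4a, Inpp4b, Tcl1, Prr5l, Fnip2, Castor1 and Grb10 had no probe that passed the filter. Here too the share called was near the background on withdrawal, 36 of 68 (52.9%) in control cells and 30 of 68 (44.1%) in miR-125b cells, with 15 higher and 21 lower, and 14 higher and 16 lower. Both counts hold Irs1 among the higher genes, although it passed the filter on dim signal only through the groups without IL-7. For miR-125b 3 were called with IL-7 (4.41%), 10 without (14.7%) and 13 in the average (19.1%), where 2.59%, 6.42% and 15.8% of all genes were. Counts of the lists below stand beside the same shares of all genes on withdrawal as above, 20% higher and 34.2% lower in control cells and 20.3% and 32.1% in miR-125b cells, and nothing particular to a list is read from them. The largest changes of the pathway lay in these genes and not in the 9 described above. The genes named below for having the largest called changes of a comparison were each measured by a single probe. For the further genes named below the number of probes is not given here.

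Of 10 other PI3K subunits and adaptors, 5 rose and 2 fell on withdrawal in control cells, and 6 rose and 2 fell in miR-125b cells, where 54.2% and 52.4% of all genes were called. The rises include Irs1, which passed the filter on dim signal only without IL-7 and is described below with no test. Pik3r3, which encodes the regulatory subunit p55gamma, read -2.40 and -2.37 in control cells with IL-7, -3.62 and -3.89 in miR-125b cells with IL-7, -0.30 and -0.21 in control cells without, and -2.18 and -2.11 in miR-125b cells without. No 2 groups overlapped. It rose on withdrawal by 2.13 in control cells and by 1.61 in miR-125b cells (SE 0.11, adjusted p = 0.00057 and 0.00121), and was lower with miR-125b by -1.37 with IL-7 and by -1.89 without (adjusted p = 0.0179 and 0.00545). The call with IL-7 was lost in 9 of 19 other settings, and over all 19 the difference ranged from -1.51 to -0.69. Its probe was dim, at a mean of -3.75 in miR-125b cells with IL-7. The withdrawal change was called in all 19 settings, but ranged from 1.54 to 2.17 in control cells and from 0.63 to 1.75 in miR-125b cells.

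Pik3r2, which encodes the regulatory subunit p85beta, went the other way in both comparisons. It read 2.52 and 2.50, 3.51 and 3.22, 1.85 and 1.89, and 2.67 and 2.53 in the order of groups used above. It was higher with miR-125b by 0.85 with IL-7 and by 0.73 without (SE 0.11, adjusted p = 0.0334 and 0.0277), and fell on withdrawal by 0.64 in control cells and by 0.76 in miR-125b cells (adjusted p = 0.00587 and 0.00405). With miR-125b the calls were lost in 12 and 8 of 19 other settings, and the difference ranged from 0.71 to 1.00 and from 0.67 to 0.92. The average over both media, 0.79 (adjusted p = 0.00541), was called in all of its 18 other settings, as was that of Pik3r3 (-1.63, adjusted p = 0.00167). Pik3r1 at the same time showed the differences given above, none of them called.

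Irs1, the adaptor that couples insulin and IGF receptors to PI3K, was not well above background on any array with IL-7 and was so on all 4 without. It read -2.25 and -2.48 in control cells and -2.58 and -3.15 in miR-125b cells without IL-7. Its level without IL-7 was at least 5.49-fold higher in control cells and at least 4.27-fold higher in miR-125b cells, taking each dim array's detection limit as its level with IL-7. Over 18 other settings the fitted log2 change of Irs1 went down to 0.82 in control cells and 0.51 in miR-125b cells. The bounds thus hold only for the processing used here. The gene passed the filter on dim signal only through the groups without IL-7, so these bounds are a description with no test. Its relative Irs2 rose by 0.58 in control cells and by 0.81 in miR-125b cells (SE 0.12, adjusted p = 0.00968 and 0.00386). The docking protein gene Gab1 rose on withdrawal by 0.61 in control cells and by 0.93 in miR-125b cells (SE 0.08, adjusted p = 0.00268 and 0.00182). It was higher with miR-125b by 0.78 without IL-7 (adjusted p = 0.0129), a call lost in 4 of 19 other settings. Pik3r5, a regulatory subunit of the PI3K that G proteins activate, rose on withdrawal by 1.10 in control cells and by 0.56 in miR-125b cells (SE 0.08, adjusted p = 0.00115 and 0.0038). Without IL-7 it was lower with miR-125b by -0.47 (adjusted p = 0.0341), a call lost in 12 of 19 other settings.

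**Figure D4:**
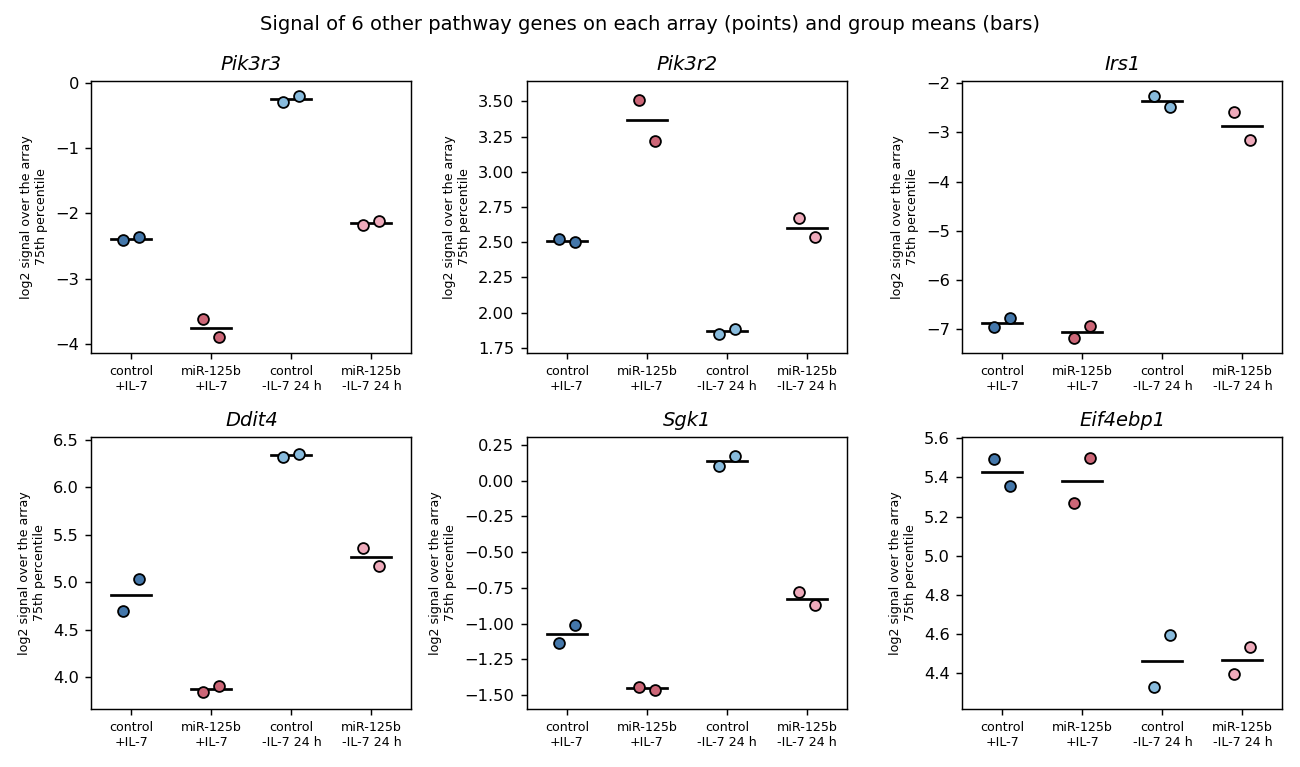
Relative log2 signal (vertical axis, log2 of signal over the array's 75th percentile) of 6 other pathway genes in the 4 groups, with each array as a point and the mean of the 2 arrays as a bar. Pik3r3, Ddit4 and Sgk1 are lower with miR-125b in both media and higher without IL-7, Pik3r2 shows the opposite order, and the values of Irs1 with IL-7 are not well above background.

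Of 6 phosphatases and inhibitors of PI3K or AKT, 4 rose in control cells and 3 in miR-125b cells, and 0 fell; under scaling to the median 1 rose in each and 1 fell in control cells. Of all genes, 20% and 20.3% rose. Inppl1, the SHIP2 phosphatase gene, rose by 0.78 and 0.89 (SE 0.11, adjusted p = 0.00306 and 0.0027). The others, listed after their values were seen, were Phlpp1 and Phlpp2, phosphatases of AKT, in both cell types, and Pik3ip1, an inhibitor of PI3K, in control cells. Of 4 class II and III PI3K genes, Pik3r4 alone was called (0.34 and 0.24, adjusted p = 0.0133 and 0.0434), and it was not called under scaling to the median.

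Kinases that activate AKT or are related to it were followed as a further list. Sgk1, a kinase related to AKT, read -1.14 and -1.01, -1.44 and -1.46, 0.11 and 0.17, and -0.78 and -0.87 in the order of groups. It rose by 1.21 in control cells and by 0.63 in miR-125b cells (SE 0.08, adjusted p = 0.000947 and 0.0028). Without IL-7 it was lower with miR-125b by -0.96 (SE 0.08, adjusted p = 0.00894), a call lost in 4 of 19 other settings. In the average of both media Sgk1 was lower with miR-125b by -0.67 (SE 0.06, adjusted p = 0.00367). So was Pdpk1, the kinase that activates AKT, named after its values were seen, by -0.34 (SE 0.06, adjusted p = 0.0163), a call lost under scaling to the array median.

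Of 12 genes of the mTOR complexes and RHEB, 0 rose on withdrawal and 6 fell in control cells, and 0 rose and 5 fell in miR-125b cells; quantile normalization gave 1 higher and 4 lower, and 2 higher and 4 lower. Of all genes, 34.2% and 32.1% fell. Telo2, a chaperone partner of mTOR and related kinases, fell by 0.67 in control cells and by 0.58 in miR-125b cells (SE 0.09, adjusted p = 0.00281 and 0.00461). The 5 that fell in miR-125b cells, listed after their values were seen, were Mlst8, Deptor, Telo2, Tti1 and Tbc1d7. Tbc1d7 is the third subunit of the TSC complex, whose scaffold gene Tsc1 rose.

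Of 10 outputs and feedback genes of mTOR, 5 fell in each cell type and 0 rose, while quantile normalization gave 2 higher and 3 lower in control cells and 1 higher and 2 lower in miR-125b cells. The share of all genes that fell was 34.2% and 32.1%, and that of all genes called 54.2% and 52.4%. The 5 were Eif4ebp1, Eif4ebp2, Eif4e, Eif4b and Rps6kb2 in both, listed after their values were seen. Eif4ebp1, the translation repressor that mTORC1 phosphorylates, read 5.49 and 5.36 in control cells with IL-7, 5.27 and 5.50 in miR-125b cells with IL-7, 4.33 and 4.59 in control cells without and 4.40 and 4.54 in miR-125b cells without. All 4 arrays without IL-7 lay below all 4 with it, and the change was -0.96 and -0.92 (SE 0.13, adjusted p = 0.00279 and 0.00377). It stayed called in all 19 other settings in both cell types.

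Of 20 genes that carry amino acid and energy signals to mTOR, 3 rose and 6 fell on withdrawal in control cells and 3 rose and 3 fell in miR-125b cells; quantile normalization gave 5 and 6 higher and 0 lower. Of all genes, 20% and 20.3% rose and 34.2% and 32.1% fell. Ddit4, the stress protein REDD1 that acts on mTORC1 through the TSC complex, read 4.70 and 5.04, 3.84 and 3.91, 6.32 and 6.35, and 5.36 and 5.18 in the order of groups. It rose on withdrawal by 1.47 and 1.39 (SE 0.13, adjusted p = 0.00146 and 0.00188), called in all 19 other settings, and was lower with miR-125b by -0.99 with IL-7 and by -1.07 without (adjusted p = 0.0327 and 0.0161), calls lost in 12 and 4 of 19. The average over both media was -1.03 (SE 0.09, adjusted p = 0.00416). The sestrins, stress proteins that restrain mTORC1, split: in the same average Sesn3 was lower with miR-125b by -0.50 and Sesn1 higher by 0.45 (SE 0.06 each, adjusted p = 0.00727 and 0.0116). Rragd, a RAG GTPase gene, was lower by -0.81 (SE 0.19, adjusted p = 0.0393), a call lost in 8 of 18 other settings.

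**Figure D5:**
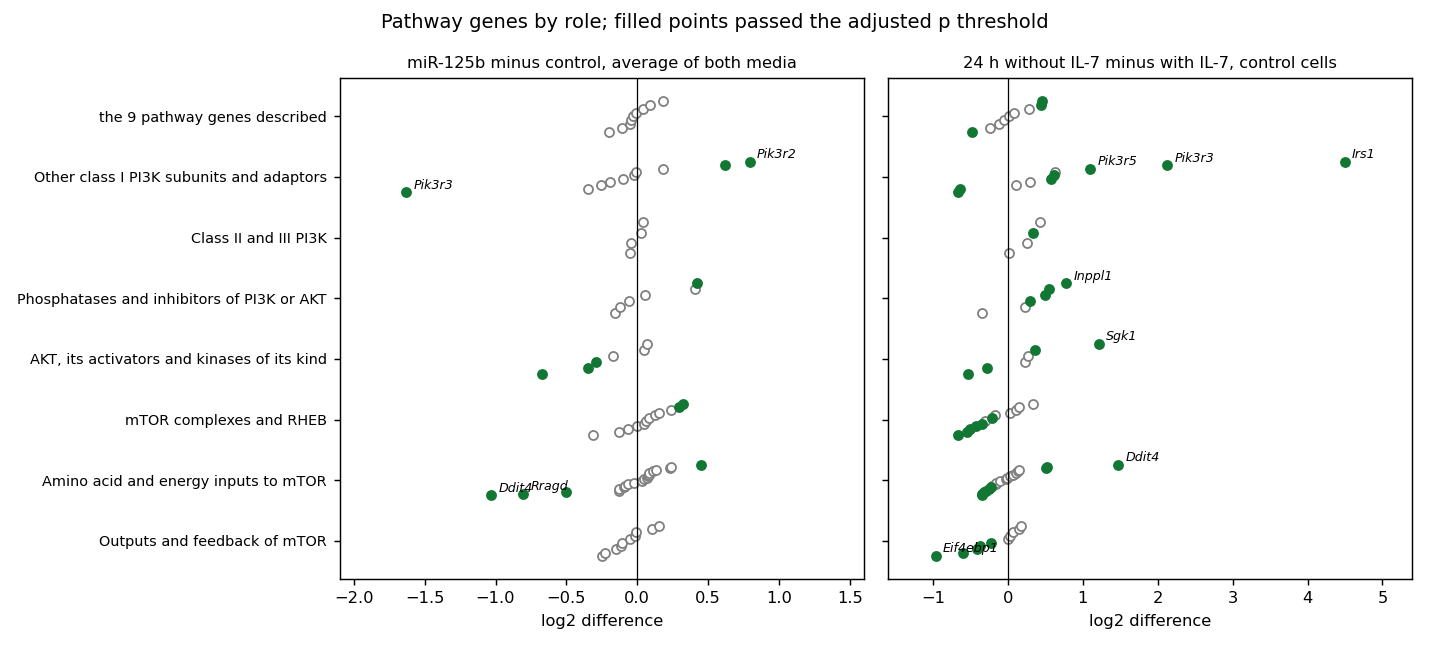
Log2 difference (horizontal axis) of the 9 genes and of the other pathway genes, 1 point a gene, in rows by role, for miR-125b minus control in the average of both media and for 24 h without IL-7 minus with IL-7 in control cells; filled points passed the adjusted p threshold, and those beyond 0.75 in size are named. The 9 genes lie between -0.20 and 0.18 on the left, while Pik3r3 lies at -1.63 and Pik3r2 at 0.79. Irs1 on the right is drawn filled at its fitted value, which is neither a measured fold nor a test, because its probe was dim with IL-7.

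The genes most like each called member over the 8 arrays were sought among 11873 genes. These carry a RefSeq symbol and were above background on all 8 arrays. The result is a description, since the arrays share slides and clones. For Akt1 they were Gm4987 and Atp5j (r = 0.997 each), and 1545 genes had r above 0.95, whereas for Tsc1 they were Zfp955a and Dip2b (r = 0.998 and 0.994) with 242 such genes. For Pik3cd they were Tepp and Hydin (r = 0.977 and 0.973), and for Pik3ca Aga and Tmem39a (r = 0.976 and 0.975), with 22 and 23 such genes. For Tsc2 they were Bmpr2 and Anapc10 (r = 0.967 and 0.947), with 1 such gene. Akt1 thus followed a course taken by many genes on these arrays. Few genes had so high an r with Tsc2, but its probe was dim and its change depended on the background correction. Whether Tsc2 has a course of its own was therefore not tested.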

How the data were processed

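RNA of 8 cultures, from 100 ng total RNA each, was hybridised in 1 colour (Cy3). Per the file headers, the deposited files hold Agilent Feature Extraction output, versions 10.7.3.1 (with IL-7) and 10.7.1.1 (without), with linear spot intensity already background-subtracted by that software; the submitters' processing notes name version 10.7.1.1. The deposited quality marks per spot gave detection, saturation and outliers. The authors' deposited value table, whose centring is not given in the sources used here, had a median of 21.7 and tracked the scanner values (r of at least 0.9993), and served as an alternative.

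Of 62976 spots, 3671 controls were left out. Processed signal was divided by the array's 75th percentile and put on a log2 scale, spots of a probe were averaged, and 29811 probes were kept, each well above background in both replicates of some group. Genes took their brightest probe, giving 20677 genes. Of these, 13741 carry a RefSeq symbol, and the rest keep a name from the array files. The shares of all genes given here count both kinds. limma 3.58.1 in R 4.3.3 fitted the means of 4 groups over 8 arrays with moderated variances, for 6 contrasts with Benjamini-Hochberg adjustment at 0.05. The limma fit was also tried on simulated arrays with known changes, whose levels and spread were taken from the fit of these data. The number of arrays limits the precision. A fold against a dim group is a lower bound, in which each dim array takes its lowest detected signal (the least among probes well above background).

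Coordinates are those of the array files (mm9). Of the 2 annotation versions, which name 14.3% of spots differently, the newer was used. Probes then took current RefSeq symbols by accession (27235 probes), by symbol (3581) or by synonym (565), and 24300 kept the name of the array files. All probes of the 9 genes are reported. Of the other pathway genes, those named per comparison are up to 8 called genes of largest change that were well above background on all arrays of at least 1 group, and each called member has its 2 most correlated genes. Members and lists were chosen with earlier results of these data known. Alternatives covered background, scaling, filters, probe choice, variance trend, arrays entered, replicate block and each array left out. Some results of the list of AKT-related kinases are not reported here.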

Additional observations from a re-analysis of the deposited data

How the results depend on the processing

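Of the 9 genes, the number called on withdrawal in control cells was 3, and 5 under quantile normalization and 5 with the authors' deposited table, from 2 to 5 over the alternatives that keep all arrays of a group; in miR-125b cells it was 4, and 2 under scaling to the array median, from 2 to 6. In the average of both media miR-125b gave 0, and 1 (Pik3cd) with a mean-variance trend. Leaving out each array in turn gave 2 to 3 on withdrawal in control cells, 2 to 4 in miR-125b cells, and 0 to 0 in the other comparisons. Inpp5d on withdrawal, near 0 and not called, turned sign and was called at 0.28 and 0.32 under quantile normalization and at 0.28 and 0.32 with the deposited table, as was Akt2 in miR-125b cells at 0.27 in both; the cause was not tested. With the replicate number as a block, 0, 0, 0, 2, 3 and 0 members were called in the 6 comparisons (vector with IL-7, without, average, withdrawal in control and in miR-125b cells, difference). The labels do not say that a number marks a shared clone or day, and deviations of same-numbered arrays correlated at -0.10 to 0.11. Over all genes, calls ranged from 0 to 1489 with IL-7 (535 as reported), 454 to 2660 without (1328), 1385 to 4712 in the average (3267), 9201 to 15245 and 8195 to 14677 on withdrawal (11202 and 10839), and with 1 array left out from 0 to 140, 3 to 1131, 988 to 2604, 7245 to 11076 and 7174 to 10701. Of all withdrawal calls 36.9% and 38.7% were higher, 16.7% and 21.6% under scaling to the median, and 25.3% and 25% under normexp. The share higher with miR-125b moved from 43.6% to 61.4%, 45.9% to 78.2% and 45.9% to 77.2% under scaling to the median. Of 1663 gene values under alternatives, 73 changed sign, 6 of them with a call. A fit of only the 4 arrays compared gives no value for the average and the difference, which use all 8.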
